A study of Ovis aries with 8 samples.

Results

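The data described here are the transcriptome of fetal sheep (Ovis aries) hepatocytes without treatment. The series has 8 libraries, and the 4 that its labels call basal, 1 from each of 4 numbered cell preparations, were taken. The other 4 libraries come from the same preparations after 24 h with metformin, an antidiabetic biguanide, and were not used. The labels give hepatocytes as the cell type and polyadenylated RNA as the molecule, and no fetal age, sex, breed, culture time or medium is given in the sources used here. They do not say whether the preparations came from separate animals, so every SD in the text measures the spread between preparations, and its share from variation between animals is unknown.

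Hepatocytes are the main epithelial cells of the liver and secrete most proteins of the blood plasma, among them albumin, transferrin, the clotting factors, complement components and apolipoproteins. They also handle glucose, amino acids, cholesterol, bile acids and nitrogen. In the fetus the liver makes alpha-fetoprotein and insulin-like growth factor 2, hosts blood cell formation, and has not yet turned on many of the enzymes that mark the liver after birth.

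Levels are FPKM, fragment numbers divided by the length of the transcript and by the total mapped in that library, as the authors deposited them. Dividing by length is meant to put the genes of a library on a common scale. How far the listed levels match true relative abundance was not tested, so rankings and shares are those of listed FPKM. The reads behind each value are not known. Spread is the SD over the 4 preparations of log2(FPKM + 1), a scale that understates differences between low values. With 1 group there is no contrast to test, and the account is descriptive. Values are given for preparations 1 to 4 in that order, and some of the list members named were chosen after their values had been seen.

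The table held 15823 distinct gene symbols. Of these, 10468 reached an FPKM of at least 1 in all 4 libraries, or 66.2%, another 1169 did so in 1 to 3 libraries, and 1749 were listed at 0 in all 4. Summed FPKM per library ranged between 1024543 and 1197321. Rows without a symbol, 8947 in number, held 23.1% to 25.7% of that sum, and 51 of them averaged at least 1000 FPKM, so part of the abundant RNA cannot be named here. Low values need care. RPL35, a ribosomal protein gene, was listed at 0 in every library. EEF1A1, the translation elongation factor that all cells use, was listed at 0.0609, 0, 0.127 and 0.0686 FPKM. A gene listed at or near 0 is therefore reported as listed there, and its absence from the cells is not inferred.

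A small number of symbols held much of the summed signal. The 100 highest took 30.8%, 34.9%, 30.6% and 32.1% of the summed FPKM in preparations 1 to 4 (mean 32.1% ± 1.96, SD, n = 4). ATP6V0C, a membrane subunit of the proton pump that acidifies lysosomes, was first among the symbols with a value in every library, at 64622, 41104, 53066 and 73179.9 FPKM. Its share of the sum was 4.01% to 6.11%. NEAT1_2, a segment of a long nuclear RNA, followed by mean, at 11291, 34818, 10483 and 8073 FPKM, with preparation 2 far above the others. OST4, a small subunit of the complex that attaches sugars to secreted proteins, came next at 16396, 14448, 15848 and 17084 FPKM and had an SD of only 0.10.

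Secreted liver proteins stood among the 20 highest symbols. AHSG, the fetal plasma glycoprotein fetuin-A, was at 17462 FPKM in preparation 3 and 13284 in preparation 4, and its cells for preparations 1 and 2 hold a placeholder and count as missing. SERPINA1, the inhibitor of neutrophil elastase, was at 18622, 9744, 10752 and 11956 FPKM. Transferrin (TF), the iron carrier of plasma, was at 6118, 6718, 6531 and 5030.1 FPKM. APOE, which directs lipoproteins to their receptors, was at 5776, 5813, 3505 and 4319 FPKM. RBP4, the plasma carrier of retinol, was at 5243, 4998, 3505 and 4108 FPKM. Within each of the last 4 genes the highest library was less than 2 times the lowest. The mitochondrial transcripts CYTB and ATP6, the ribosomal protein gene RPS28 and the symbols TMSB4Y, C7orf73 and ATP5EP2 were also among the 20.

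MT1X and SPP1 were the members of the 20 with the largest SD. MT1X, a metallothionein that binds zinc and copper, was at 2929, 5704, 16027 and 30559 FPKM, with an SD of 1.51. SPP1, osteopontin, a secreted phosphoprotein of bile duct cells, macrophages and activated stellate cells, was at 1274, 2180.1, 6265 and 8648 FPKM, with an SD of 1.29. For both genes preparations 3 and 4 lay above preparations 1 and 2.

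**Figure D1:**
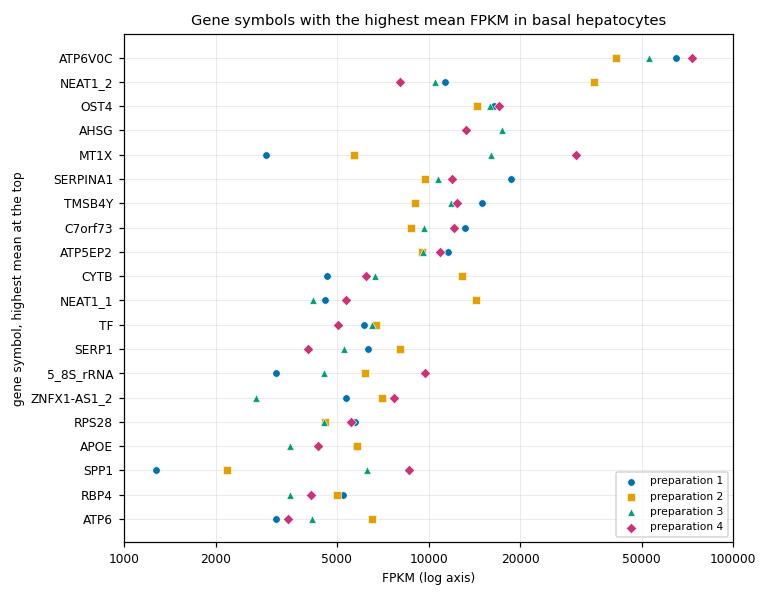
FPKM (log axis) of the 20 gene symbols with the highest mean, one point for each of the 4 basal preparations, with the highest mean at the top. OST4 and TF points lie close together, MT1X spans 2929 to 30559 FPKM, and NEAT1_2 stands apart in preparation 2. AHSG has points for preparations 3 and 4 only.

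How far the preparations resembled each other was described over the 9196 symbols with a mean of at least 5 FPKM and a value in every library. Preparations 3 and 4 were nearest. Across these genes, which are not independent replicates, their log2 levels had a Pearson r of 0.901, and 3.19% of genes differed by more than 2-fold. Preparations 2 and 4 were farthest apart, with r of 0.828 and 14.9% of genes more than 2-fold apart. Preparations 3 and 4 held the 2 highest values of a gene most often, in 38.3% of genes, and preparations 2 and 4 least often, in 6.12%. Preparation 2 contributed 32.2% of the squared deviation from the mean of the 4 and the others 22.2% to 22.9% each. It was the lowest library for 50.1% of the genes. Its median deviation was -0.17, against 0.0056, 0.063 and 0.098 in preparations 1, 3 and 4, so the values of a gene list in preparation 2 are to be read from that base.

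For most genes the spread was modest. The median SD of log2(FPKM + 1) was 0.29, or 0.21 without preparation 2, the interquartile range was 0.19 to 0.44, and the median coefficient of variation was 20.3%. The highest library was at least 2 times the lowest for 27.1% of these genes and at least 4 times for 6.99%. Genes with a mean of 10 to 50 FPKM had a median SD of 0.27 and those at 50 to 100 FPKM one of 0.28. At 500 to 1000 FPKM the median was 0.40, over 107 genes.

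**Figure D2:**
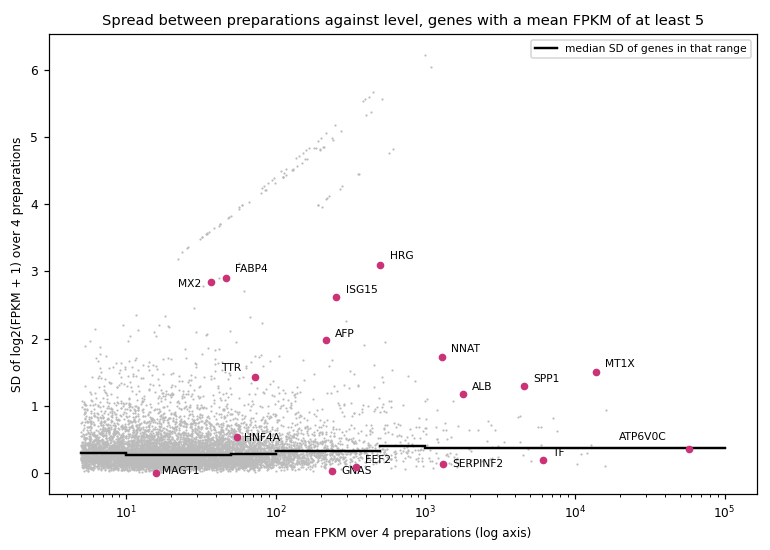
SD of log2(FPKM + 1) over the 4 preparations against mean FPKM (log axis), one grey point for each of the 9196 symbols with a mean of at least 5, with the median SD in each range of level as black lines. HRG, FABP4, MX2, ISG15 and AFP lie far above the lines and MAGT1, GNAS and SERPINF2 below them. The diagonal bands at the top are symbols listed at 0 in some libraries.

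Over the 13 hepatocyte markers looked at, the lowest value in any library was 12.7 FPKM, of FOXA2 in preparation 4. Between 7172 and 7544 symbols per library were at 10 FPKM or more, so this level does not test the label of the cells. HNF4A, the nuclear receptor at the centre of the hepatocyte programme, was at 56.3, 84.2, 34.1 and 45.1 FPKM, highest in preparation 2, with an SD of 0.54. CEBPA, a leucine zipper factor of the mature hepatocyte, was at 68.9, 49.5, 36.5 and 50.8 FPKM. FOXA2, which opens liver chromatin, was at 16.1, 18.4, 12.9 and 12.7 FPKM and had an SD of 0.24. As a list, hepatocyte transcription factors spread about as much as genes in general. Of 26 with a row, 23 were at 1 FPKM or more in every library, beside 66.2% of all symbols. The median SD was 0.28, beside 0.29 over all genes. The median deviations were -0.065, 0.10, -0.093 and 0.018. CREB3L3, an ER-anchored factor that responds to fasting, had the highest level of the list at 339, 309, 390.1 and 625 FPKM. PROX1, a homeobox factor of the early liver, had 33.2, 48.3, 17.7 and 20.3 FPKM, with preparations 1 and 2 the higher.

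Plasma proteins had a far wider spread than these factors. ALB, albumin, the main protein of plasma, was at 3347, 2351, 672 and 732 FPKM, with an SD of 1.17. AFP, alpha-fetoprotein, its fetal counterpart, was at 367, 406, 22.3 and 74.7 FPKM, with an SD of 1.98. TTR, a carrier of thyroid hormone, was at 174, 68.7, 17.5 and 29.2 FPKM. For each of the 3, preparations 1 and 2 lay above preparations 3 and 4.

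This order ran through the list of plasma carrier proteins. Of its 22 genes with a mean of at least 5 and 4 values, 18 had their highest 2 values in preparations 1 and 2, an order held by 16.5% of all genes. The median deviations were 0.85, 0.75, -0.74 and -0.75, and the median SD was 1.18. HRG, a histidine-rich plasma glycoprotein, had the widest spread, at 267, 1698, 24.7 and 16.5 FPKM (SD 3.09). APOH, which binds phospholipid, was at 838, 861, 113 and 249 FPKM. FETUB, a relative of fetuin-A, was at 2170.2, 263, 319 and 299 FPKM, where preparation 1 stood alone. TF had the narrowest spread of the list, with an SD of 0.19. VTN, the adhesion protein vitronectin, departed from the order, with its highest values in preparations 1 and 4, at 423, 242, 238 and 294 FPKM.

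All 20 coagulation and fibrinolysis genes with a mean of at least 5 had their highest 2 values in preparations 1 and 2. That order was held by 16.5% of all genes. Preparation 2 was the highest for 16 of the 20, beside 19.1% of all genes. Preparation 3 was the lowest for 13 of the 20, beside 16.1% of all genes. With each library at the same total it was the lowest for 7, beside 10.4%, and by median ratios for 13, beside 23.6%. Preparation 4 was the lowest for 7 of the 20, beside 15.1%, and for 13, beside 25.8%, at the same total. By median ratios it was the lowest for 7, beside 20.2%. FGB, the beta chain of fibrinogen, was at 1107, 2463, 934 and 1019 FPKM. F9, clotting factor IX, was at 52.1, 141, 16.0 and 19.1 FPKM, also with preparation 2 highest. SERPINC1, antithrombin, was at 628, 550.3, 103 and 147 FPKM, with preparations 1 and 2 several times above the others. SERPINF2, which inhibits plasmin, held the order by a narrow margin, at 1399.7, 1399.7, 1150.2 and 1289 FPKM. The median deviations of the list were 0.19, 1.00, -0.53 and -0.44.

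Complement genes were similar, with 12 of 13 in that order, beside 16.5% of all genes, and 12 of 13 highest in preparation 2, beside 19.1%. CFI, the protease that inactivates C3b and C4b, was at 398, 488, 149.7 and 116 FPKM. SERPING1, the C1 inhibitor, was at 468, 519, 151 and 134 FPKM. In MBL2, the mannose-binding lectin, preparation 2 stood alone, at 4.55, 68.7, 3.07 and 1.28 FPKM. C4BPA, a binding protein that restrains C4b, spread least in the list, at 433, 527, 267 and 426 FPKM.

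Lipoprotein genes followed less closely, with 10 of 15 in the order, beside 16.5% of all genes. Preparation 3 was the lowest for 7 of the 15, beside 16.1% of all genes. It was also 7 with each library at the same total, beside 10.4%, and by median ratios, beside 23.6%. APOA1, the main protein of high-density lipoprotein, was at 1226, 1068, 427 and 718 FPKM. APOA2, its partner, was at 2884, 1677, 506 and 1031 FPKM and had the higher SD, 1.07. APOB, the structural protein of very-low-density lipoprotein, was at 191, 176, 172 and 245 FPKM, with preparation 4 highest and an SD of 0.23. Of 8 acute phase and protease inhibitor genes, 4 had the order, beside 16.5% of all genes, and 4, SERPINA1 among them, did not. Hepcidin (HAMP), the iron hormone of the liver, was 1 of the 4, at 1636, 1174, 454 and 763 FPKM. The secreted chemotaxin LECT2, also of the 4, was at 542, 537, 99.7 and 76.4 FPKM.

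**Figure D3:**
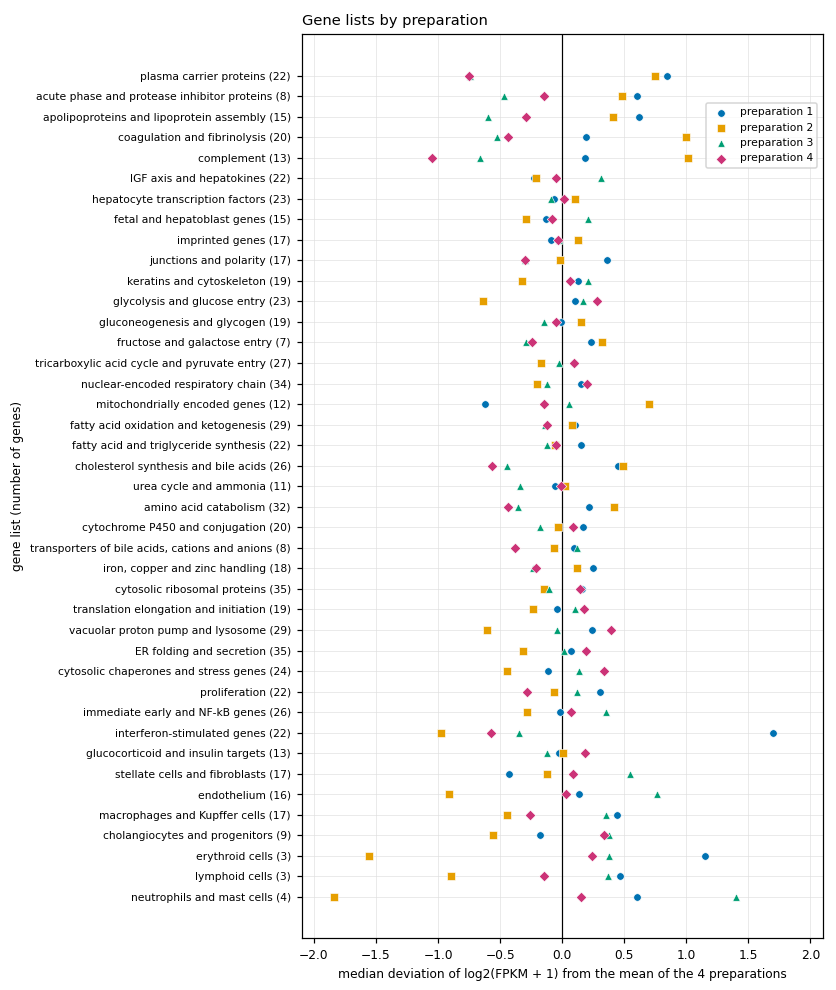
Median deviation of log2(FPKM + 1) from the mean of the 4 preparations, for each gene list with at least 3 genes at a mean of 5 FPKM or more; the number of genes stands in brackets. Plasma carriers, coagulation, complement and cholesterol synthesis have preparations 1 and 2 to the right of 0 and preparations 3 and 4 to the left, and interferon-stimulated genes have preparation 1 alone at 1.70.

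Fetal genes showed no common order. IGF2, the growth factor of the fetus, was at 438, 525, 583 and 395 FPKM, with an SD of 0.25. IGF1, the growth factor of postnatal liver, was far lower, at 24.9, 8.00, 9.76 and 3.80 FPKM. DLK1, a surface protein of hepatoblasts, was at 60.6, 61.8, 96.5 and 134 FPKM, highest in preparation 4. GPC3, a fetal cell-surface proteoglycan, was at 811, 367, 412 and 413 FPKM, with preparation 1 apart. HMGA1, a chromatin protein of growing cells, was at 418, 212, 680.0 and 879.9 FPKM, lowest in preparation 2.

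Imprinted genes, expressed from 1 parental allele, included some of the most abundant transcripts. PEG10, an imprinted gene of retroviral origin, was at 2344, 4922, 1566 and 1616 FPKM. NNAT, an imprinted proteolipid gene, was at 665, 3909, 315 and 303 FPKM. Both were highest in preparation 2, as were 9 of the 17 imprinted genes with a mean of at least 5, beside 19.1% of all genes. With each library at the same total it was 11, beside 26.2%, and by median ratios 13, beside 30.6%. GNAS, a G protein subunit gene of the imprinted list, was almost level, at 241, 238, 241 and 231 FPKM, with an SD of 0.028. Expression by allele was not measured.

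The binding proteins of the insulin-like growth factors split. IGFBP2, abundant in fetal plasma, was at 1615, 1494, 822 and 887 FPKM, with preparations 1 and 2 high. IGFBP1, which insulin represses, was at 1082, 558, 730.0 and 1609 FPKM, with preparations 1 and 4 high. IGFBP3, the main carrier in adult plasma, was at 210.3, 186, 451 and 816 FPKM, with preparations 3 and 4 high. The insulin receptor INSR was at 27.7, 29.0, 18.7 and 18.1 FPKM, higher in preparations 1 and 2. IGF1R, the receptor for both growth factors, was at 11.2, 15.8, 26.2 and 24.8 FPKM, higher in preparations 3 and 4. GHR, the growth hormone receptor, was nearly even, at 68.5, 69.1, 57.0 and 60.1 FPKM.

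Genes of cholesterol synthesis and bile acids had the order of the plasma proteins. Preparations 1 and 2 were the highest for 22 of 26, beside 16.5% of all genes. Preparation 4 was the lowest for 15 of the 26, beside 15.1% of all genes. Their median deviations were 0.45, 0.49, -0.45 and -0.57. HMGCS1, the cytosolic synthase early in the pathway, was at 167, 158, 67.6 and 52.2 FPKM. INSIG1, which holds back the sterol-sensing SREBP factors, was at 55.9, 59.5, 16.5 and 16.7 FPKM. In both genes preparations 1 and 2 lay above preparations 3 and 4. CYP8B1, which sets the mix of bile acids, spread least, at 13.3, 15.4, 10.7 and 13.8 FPKM. CYP7A1, the rate-limiting enzyme of bile acid synthesis, was listed at 0, 0.717, 0 and 0 FPKM.

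Of 32 amino acid breakdown genes with a mean of at least 5, 20 had their highest values in preparations 1 and 2, beside 16.5% of all genes. BHMT, which remethylates homocysteine with betaine, was at 395, 417, 106 and 142 FPKM. TDO2, tryptophan dioxygenase, was at 5.29, 58.6, 1.99 and 0.932 FPKM. FTCD, an enzyme of histidine breakdown, was at 4.40, 41.3, 0.29 and 0.382 FPKM. In TDO2 and FTCD preparation 2 stood far above preparation 1, and preparations 3 and 4 were lowest. In the urea cycle, the first enzyme CPS1 was at 86.7, 288, 58.7 and 74.3 FPKM, highest in preparation 2. The last enzyme, ARG1, was at 693, 421, 243 and 412 FPKM, highest in preparation 1. OTC, the mitochondrial transcarbamylase, was at 20.7, 25.02, 4.28 and 1.63 FPKM.

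The balance of related enzymes was described for 25 pairs of genes with the same or a related activity. In each, 1 form was taken as that of mature liver and the other as that of fetal, growing or other cells. The assignment was not tested for each pair, and some genes stand in several pairs. Both had a row in 22 pairs. The liver form was higher in all 4 libraries in 9 pairs, the other form in 6, and the preparations differed in 7. FBP1, the fructose bisphosphatase of liver gluconeogenesis, held 98.4% to 99.8% of the summed FPKM of its pair with FBP2. ARG1 held 96.0% to 98.5% of its pair with ARG2. PYGL, liver glycogen phosphorylase, held 77.1% to 86.8% of its pair with PYGB. GYS2, liver glycogen synthase, held 72.5% to 85.8% of its pair with GYS1.

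In 6 pairs the other form was the higher. PKM, the pyruvate kinase of most tissues, was at 284, 150.3, 402 and 349 FPKM, and PKLR, the form of mature liver, was at 11.9, 30.7, 1.93 and 1.85 FPKM. PCK2, the mitochondrial carboxykinase of gluconeogenesis, was at 48.6, 84.6, 70.8 and 48.1 FPKM, and PCK1, the cytosolic form, was at 1.13, 1.37, 0.106 and 0.228 FPKM. G6PC, which releases glucose from the hepatocyte, was at 8.58, 28.1, 3.11 and 6.52 FPKM, below the ubiquitous G6PC3, at 30.1, 29.7, 40.6 and 44.4 FPKM, in every library.

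In several of the pairs that differed, preparations 1 and 2 had the larger share of the liver form. SLC2A2, the low-affinity glucose carrier of hepatocytes, made up 59.5%, 80.8%, 15.1% and 22.7% of its pair with SLC2A1, the carrier of growing cells. MAT1A, the methionine adenosyltransferase of adult liver, made up 73.4%, 79.4%, 39.0% and 48.8% of its pair with MAT2A. FABP1, the liver fatty acid binding protein, was above its partner FABP5 only in preparation 2, at 21.7%, 77.8%, 24.2% and 12.1% of the pair.

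**Figure D4:**
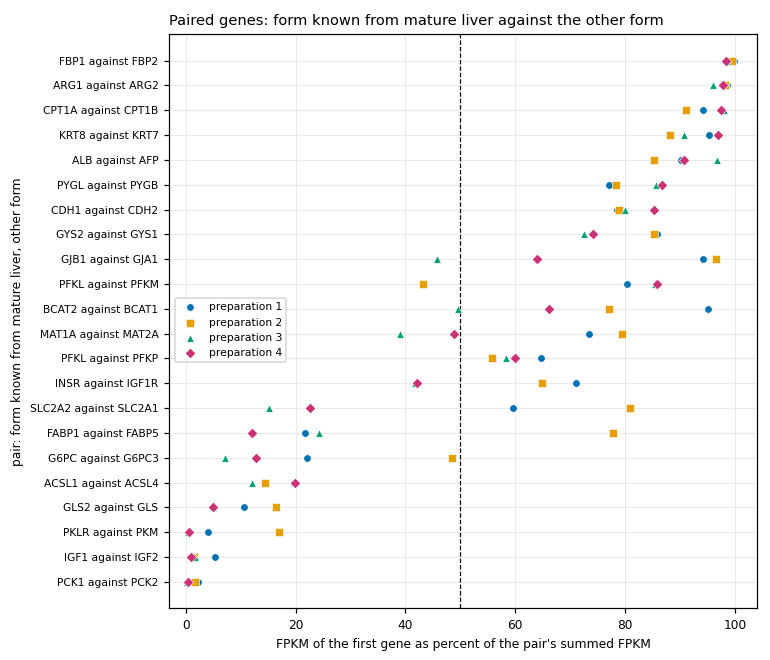
Share of the form taken as that of mature liver in the summed FPKM of its pair, in percent. Points are single preparations, for the 22 pairs with both rows, and the dashed line marks 50%. FBP1, ARG1 and CPT1A lie near 100% in all preparations, PCK1 near 0%, and SLC2A2 against SLC2A1 has preparations 1 and 2 above 50% and preparations 3 and 4 below.

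Of 23 glycolysis and glucose entry genes with a mean of at least 5, 17 were lowest in preparation 2, the lowest library for 50.1% of all genes. ENO1, enolase, was at 1511, 828, 1555 and 2019 FPKM. HK1, a hexokinase of most tissues, was at 37.9, 27.7, 54.3 and 63.1 FPKM. LDHA, which makes lactate, was at 195, 91.8, 149 and 222 FPKM. CPT1A, the gate of mitochondrial fatty acid oxidation, was at 34.4, 28.7, 71.7 and 65.1 FPKM, higher in preparations 3 and 4. PLIN2, a coat protein of lipid droplets, was at 56.1, 60.0, 173 and 210.2 FPKM, with the same order. SCD, the desaturase that makes oleate, ran the other way, at 95.4, 66.2, 16.3 and 12.8 FPKM. FASN, fatty acid synthase, was at 18.2, 20.05, 12.2 and 9.78 FPKM.

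Among drug-handling enzymes, EPHX1, microsomal epoxide hydrolase, was at 553, 331, 130.2 and 136 FPKM, with preparations 1 and 2 high. CYP1B1, a cytochrome P450 of extrahepatic tissues, was at 6.06, 6.05, 48.7 and 67.2 FPKM, with preparations 3 and 4 high. CYP1A1, which aromatic compounds induce, was at 27.7, 26.02, 2.49 and 25.9 FPKM, with preparation 3 alone low. CYP2E1, an ethanol-oxidising enzyme of liver after birth, was listed at 0.0372, 0.0236, 0.0201 and 0 FPKM.

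Mitochondrial RNA and nuclear genes for the same respiratory complexes did not share an order. Of 12 genes encoded by mitochondrial DNA, 11 were highest in preparation 2, beside 19.1% of all genes. In preparation 1, 11 were lowest, beside 17.9% of all genes. Preparations 2 and 3 were the highest for 10 of the 12, beside 8.13% of all genes. Together the 12 summed to 13339.8, 34052, 19374 and 16968 FPKM. CYTB, cytochrome b, was at 4644, 12888, 6693 and 6227 FPKM. COX1, a core subunit of cytochrome oxidase, was at 1999, 5194, 2034 and 1796 FPKM. Of 34 nuclear respiratory chain genes, 26 had their highest values in preparations 1 and 4, beside 19% of all genes, 16 beside 8.5% when each library was scaled to the same total, and 20 beside 16.6% by median ratios. COX6A1, a nuclear subunit of cytochrome oxidase, was at 1071, 813, 820.4 and 1082 FPKM.

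Ribosomal protein genes spread little, with a median SD of 0.19. Preparations 1 and 4 were the highest for 30 of 35 of them, beside 19% of all genes, for 14 beside 8.5% with each library at the same total, and for 21 beside 16.6% by median ratios. RPL19, of the large subunit, was at 2652, 2090.1, 2191 and 2639 FPKM. RPS26, of the small subunit, was the most even, at 549.7, 608, 581 and 610.1 FPKM.

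Of 29 vacuolar proton pump and lysosome genes with a mean of at least 5, all 29 were lowest in preparation 2, beside 50.1% of all genes. It was 28 of 29 beside 37.7% with each library at the same total, and 24 of 29 beside 33.9% by median ratios. Preparation 4 was the highest for 21 of the 29, beside 34.5% of all genes. CTSB, cathepsin B, a lysosomal protease, was at 1068, 310.1, 798 and 1926 FPKM. LAMP1, a lysosomal membrane protein, was the most even of the list, at 507, 401, 431 and 504 FPKM. Lysosomal genes are also abundant in macrophages. The 18 macrophage markers had their lowest sum in preparation 2, at 1726 FPKM, beside 2249 to 3756 FPKM in the others. Of the 17 with a mean of at least 5, 9 were lowest in preparation 2, beside 50.1% of all genes. Another 8 were lowest in preparation 4, beside 15.1%, where most of the lysosomal genes were highest. The median deviations of the macrophage markers were 0.44, -0.45, 0.36 and -0.26. Their part in the lysosomal order was not tested.

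Interferon-stimulated genes set preparation 1 apart. All 22 with a mean of at least 5 were highest there, under both other scalings too, beside 20.2% of all genes. ISG15, a ubiquitin-like protein induced by interferon, was at 943, 27.9, 18.9 and 28.4 FPKM. MX1, an antiviral GTPase, was at 276, 19.3, 42.0 and 29.4 FPKM. IFIT1, which binds viral RNA, was at 119, 5.72, 7.16 and 5.23 FPKM. In these 3 genes preparation 1 was several times above any other. B2M, the light chain of MHC class I, was at 7781, 1874, 3392 and 4171 FPKM. IRF9, a factor of interferon signalling, spread least, at 129, 93.8, 82.4 and 79.1 FPKM. The median deviations of the list were 1.70, -0.98, -0.35 and -0.58. Macrophage markers were highest in preparation 1 for 10 of 17, beside 20.2% of all genes, and in preparation 3 for the other 7, beside 26.3%. Preparations 1 and 3 were their 2 highest for 11 of 17, beside 11.5% of all genes. They summed to 3756, 1726, 3577 and 2249 FPKM. Their part in the interferon order was not tested.

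Markers of other liver cells were present. In bulk RNA, fewer cells of a type and less RNA per cell cannot be told apart. All 18 macrophage markers with a row reached 1 FPKM in every library, beside 66.2% of all symbols. CD68, a lysosomal protein of macrophages, was at 883, 268, 624 and 682 FPKM. C1QB, a complement subunit made by Kupffer cells, was at 668, 372, 826 and 285 FPKM. CD163, a scavenger receptor, was at 73.1, 54.8, 64.2 and 49.8 FPKM. CLEC4F, a lectin of Kupffer cells in mice, spread most, at 145, 18.4, 30.7 and 3.19 FPKM.

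All 18 stellate cell and fibroblast markers with a row were also at 1 FPKM or more in every library, beside 66.2% of all symbols. ACTA2, smooth muscle actin, was at 1249, 817, 1192 and 367 FPKM, lowest in preparation 4. COL1A1, the main chain of type I collagen, was at 234, 363, 607 and 404 FPKM. COL3A1, a fibrillar collagen, was at 162, 297, 751 and 304 FPKM. Of the 17 with a mean of at least 5, 13 were highest in preparation 3, beside 26.3% of all genes. The 18 summed to 2987, 2769, 4764 and 2388 FPKM. VIM, vimentin, an intermediate filament of mesenchymal cells, was at 3232, 2414, 3029 and 3547 FPKM. KRT8, a keratin of hepatocytes, was at 2059, 1333, 2361 and 2072 FPKM, below VIM in every library.

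Endothelial markers were lower and were likewise highest in preparation 3, in 15 of 16 beside 26.3% of all genes, and 14 of 16 were lowest in preparation 2, beside 50.1%. PECAM1, a junctional protein of endothelium, was at 148, 29.9, 152 and 86.3 FPKM. LYVE1, a hyaluronan receptor of sinusoids, was at 50.03, 19.7, 64.8 and 43.2 FPKM. STAB2, a scavenger receptor of sinusoidal endothelium, was at 0.265, 0.285, 2.72 and 0.665 FPKM. Of the 17 with a row, 16 were at 1 FPKM or more in every library, beside 66.2% of all symbols. The 17 summed to 490.4, 202, 688 and 421 FPKM.

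Most markers of blood lineages had a mean below 5 FPKM, but some were well above it. Of those with a row, 3 of 13 erythroid and 3 of 15 lymphoid markers had a mean of at least 5. So did 4 of 10 neutrophil and mast cell markers, and 0 of 4 platelet markers. TFRC, of the erythroid list, was at 34.6, 54.4, 102 and 72.2 FPKM. S100A12, of the neutrophil list, was at 65.3, 9.08, 129 and 51.5 FPKM. Of 24 erythroid genes listed, 13 had a row, and 2 of these reached 1 FPKM in all libraries, beside 66.2% of all symbols. ALAS2, the haem synthesis enzyme of red cell precursors, was at 57.9, 0.481, 11.3 and 6.47 FPKM. PTPRC, the common leukocyte antigen CD45, was at 39.8, 11.4, 28.8 and 17.8 FPKM. S100A9, of neutrophils and monocytes, was at 92.8, 8.58, 119.7 and 52.1 FPKM, with preparation 2 lowest. The 4 platelet genes with a row summed to at most 4.78 FPKM in a library. MKI67, a nuclear antigen of dividing cells, was at 13.2, 8.03, 6.52 and 6.78 FPKM. CDH1, the epithelial cadherin, was at 666, 511, 935 and 789.6 FPKM. EPCAM, of bile duct and progenitor cells, was at 5.44, 2.94, 6.76 and 5.48 FPKM, and the bile duct keratin KRT7 at 103, 178, 243 and 64.1 FPKM.

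**Figure D5:**
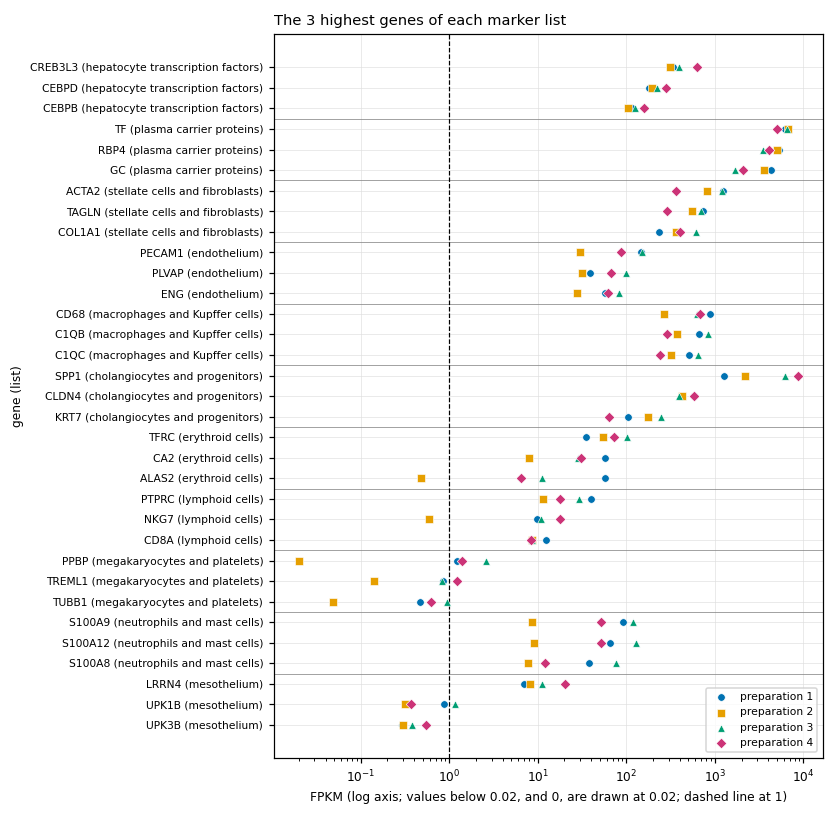
FPKM (log axis, 0 and values below 0.02 drawn at 0.02, dashed line at 1) of the 3 highest genes with 4 values in each of 11 marker lists, one point per preparation. Hepatocyte, stellate, macrophage and endothelial genes lie between 28.0 and 6718 FPKM in all preparations, and the platelet genes and the mesothelial genes UPK1B and UPK3B lie near or below 1.

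Stellate, endothelial and cholangiocyte markers had other orders than the plasma carriers, whose median deviations were 0.85, 0.75, -0.74 and -0.75. Preparation 3, which was the lowest for 12 of 22 plasma carriers, beside 16.1% of all genes, had the highest sums of stellate and endothelial markers. It was the lowest for 8 carriers, beside 10.4%, with each library at the same total, and for 12, beside 23.6%, by median ratios. Preparation 4 was the lowest for 8 carriers, beside 15.1% of all genes. At the same total it was the lowest for 13, beside 25.8%, and by median ratios for 9, beside 20.2%. Preparation 4 had the lowest stellate sum, 2388 FPKM, and plasma carriers about as low as preparation 3. Over the 17 stellate markers with a mean of at least 5, the median deviations were -0.43, -0.12, 0.55 and 0.087. Of these markers 10 were lowest in preparation 1, beside 17.9% of all genes, and 4 in preparation 4, beside 15.1%. The 14 cholangiocyte and progenitor markers with a row summed to 2204, 2927, 7097 and 9562 FPKM, of which SPP1 alone was more than all the others together in every library. Their median deviations, over the 9 with a mean of at least 5, were -0.18, -0.56, 0.38 and 0.33, with preparations 3 and 4 the higher. The part of these cells in the plasma protein order was not tested.

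Some genes had the opposite order, with preparations 3 and 4 highest, an order held by 38.3% of all genes. The following examples were chosen after their values had been seen. MMP1, an interstitial collagenase, was at 39.2, 31.7, 361 and 749.6 FPKM. SERPINE2, an extracellular inhibitor of serine proteases, was at 10.9, 23.1, 121 and 136 FPKM. HGF, the hepatocyte growth factor made by stellate cells, was at 2.16, 5.57, 36.2 and 27.1 FPKM. GJA1, connexin 43, was at 18.2, 11.1, 109 and 59.9 FPKM. GJB1, the gap junction protein of hepatocytes, ran the other way, at 299, 322, 91.6 and 106 FPKM.

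The 15 symbols with the largest SD were all unmatched to a protein-coding gene and listed at 0 in at least 1 library. Xist_exon4, a segment of the RNA that silences an X chromosome in females, was listed at 868, 3109, 0 and 0 FPKM, and the labels give no fetal sex. SNORD86, a small nucleolar RNA, was listed at 1724, 0, 0 and 0 FPKM. MEG3_2, a segment of an imprinted noncoding RNA, was listed at 0, 1765, 275 and 0 FPKM.

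Protein-coding symbols were ranked separately, a choice made after the values were seen. Among the 6906 with a mean of at least 10 and no 0, the 40 with the largest SD were taken. Their highest values were in preparations 1 and 2 in 18 cases, 1 and 4 in 11, 1 and 3 in 7, and 3 and 4 in 4. Of all genes with a mean of at least 5, 16.5%, 19%, 11.5% and 38.3% had these orders. FABP4, a fatty acid binding protein of fat cells and macrophages, was at 41.4, 0.537, 5.02 and 139 FPKM. CXCL10, an interferon-induced chemokine, was at 131, 14.5, 98.9 and 1.33 FPKM. ALDH8A1, an enzyme of tryptophan breakdown, was at 83.9, 171, 10.6 and 4.70 FPKM. The 3 genes had different orders over the preparations.

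The 10 symbols with the smallest SD all matched protein-coding genes, and their means lay between 12.3 and 100.8 FPKM. MAGT1, a subunit of the complex that glycosylates proteins, was at 15.9, 15.9, 16.0 and 15.9 FPKM, with an SD of 0.0023. CLPX, a mitochondrial unfoldase, was at 40.6, 40.8, 39.9 and 40.4 FPKM. GOSR1, a Golgi membrane fusion protein, was at 21.7, 21.6, 22.3 and 22.0 FPKM. NBR1, an autophagy receptor, was at 101, 102, 98.2 and 102 FPKM.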

How the data were processed

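Polyadenylated RNA of fetal sheep hepatocytes was measured in 4 basal libraries, preparations 1 to 4. The authors deposited FPKM values made with Cufflinks on Oar_v3.1, per the submitters' processing notes. Depth in reads, annotation and aligner are not given in the sources used here, so no counting interval is given.

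From the 27057 rows, the 18085 with a gene symbol were kept; 25 symbols turned into dates and 8947 unnamed rows entered only the library sums. For 161 symbols on several rows the row with the highest mean was used. The 2 placeholder cells, both of AHSG, were treated as missing. The authors' deposited basal mean equalled the mean of the listed values in 27057 of 27057 rows, within 0.006. Of 15823 symbols, 13763 matched the RefSeq table of assembly ARS-UI_Ramb_v3.0, used for names and gene type only, and the 13760 matched as protein coding are the protein-coding symbols.

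Spread and orders used Python 3.11.15 with pandas 2.3.3 and numpy 2.4.6, a pseudocount of 1 and genes with a mean of at least 5 FPKM. The functions were tested on simulated data. The 43 gene lists and the 25 pairs were chosen with earlier results of these data known; some genes, and pairs that hold one, are not reported here. Genes named were the 20 highest, the 15 widest and 10 tightest with a mean of at least 10, the 3 highest, the widest and the tightest of each list, both genes of each pair, and 48 fixed genes; this rule took 265 genes, and the text leaves many out. Other genes named were chosen after their values were seen. Alternatives were 2 other scalings, leaving out each library, summing rows of a symbol, other detection limits, and another pseudocount and filter. Protein-coding symbols alone were an alternative chosen after seeing the data.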

Additional observations from a re-analysis of the deposited data

Results flagged for a closer look

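For each of 144 named genes with 4 values, the highest and the lowest preparation were compared with the rest on log2(FPKM + 1), by the gap to the nearest other value over the whole range (Dixon's ratio at its 95% limit). By this measure 9 genes had a preparation that stood apart. Chance flags about 1 in 20 groups, but many of these genes were picked by their values, so the 9 cannot be read against that rate. Where 3 libraries are listed at 0, as for SNORD86 and CYP7A1, the ratio is 1 by construction. Preparation 1 stood above the others in 5 of them. ISG15 was at 943 FPKM there, beside 18.9 to 28.4 in preparations 2 to 4, and IFIT1 at 119 beside 5.23 to 7.16. FETUB was at 2170.2 FPKM in preparation 1, beside 263 to 319, and GPC3 at 811 beside 367 to 413. SNORD86 was listed at 1724 FPKM in preparation 1 and at 0 in the others. FBP2 was lowest in preparation 1, at 0.323 FPKM, beside 1.22 to 1.45.

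In preparation 2, COX1 was at 5194 FPKM, beside 1796 to 2034 in the others, and CYP7A1 was listed at 0.717 FPKM, beside 0. In preparation 3, CYP1A1 was at 2.49 FPKM, beside 25.9 to 27.7. Of the 41 gene lists, 0 had a median deviation that stood apart by this measure.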

How the results depend on the processing

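The number of symbols at an FPKM of at least 1 in all 4 libraries, 10468, was 10358 to 10609 under both other scalings, with rows of a symbol summed or with 1 library left out, and 11942 and 8230 at limits of 0.1 and 5 FPKM. The share held by the 100 highest symbols, 32.1%, lay between 31.2% and 32.6% in the same settings and was 31.4% without AHSG and WBP1L. The median SD, 0.29, lay between 0.21 (without preparation 2) and 0.29 with 1 library left out, and was 0.23 with no filter on the mean; the cause was not tested. It was 0.28 over protein-coding symbols listed above 0, an alternative chosen after seeing the data. Of the 265 named genes, 29 had a mean that moved by more than 1 SD with each library at the same total, and 0 did so by median ratios. The common total lay below the sum of every library, so means fell by the change of unit alone. Genes with a small SD can move in this way, and the 29 are not read as a dependence on processing. Of 86 list deviations of at least 0.2 in size, 0 changed sign under either scaling. With 1 library left out, 6 did, among them those of interferon-stimulated genes in preparations 3 and 4 without preparation 1. With no filter on the mean, that of the IGF axis in preparation 2, -0.21, was 0.12, and that of lymphoid markers in preparation 1, 0.46, was 0. No paired analysis was possible because the values come from 1 group and no test. Depth is unknown, so which low values rest on few reads cannot be said.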
